A study of Mus musculus with 6 samples.

Results

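The comparison set Erk knockout against wild-type mouse embryonic stem cells (ESCs) when both were under a Mek inhibitor. Its libraries were chosen by their labels and are 2 of the 6 of the series. One came from the engineered line labelled iErk1; Erk KO, in which Erk1 can be switched on with doxycycline (Dox). That culture had been without Dox for 96 hours and received PD0325901, an inhibitor of the kinase Mek, for 48 hours. The other came from wild-type KH2 cells that received PD0325901 for 48 hours. All cells were KH2 ESCs of the C57BL/6 x 129 background, so the 2 libraries share the parent line and the inhibitor and differ in genotype. KH2 is known as a line built for Dox-inducible transgenes, with a docking site next to the Col1a1 gene. Where the iErk1 transgene sits, whether the engineered line is 1 clone, the inhibitor dose and the use of feeder cells are not given in the sources used here. PolyA RNA was sequenced as single-end reads, and each group is 1 library, so the ratios below compare 2 libraries and have no replicate check. A pair without the inhibitor (Erk KO, 96 hours without Dox, and untreated KH2) and a pair with Erk1 induced (the engineered line with Dox, and the same untreated KH2 library) are given beside it. Neither shares a library with the inhibited pair, but they share the KH2 library with each other.

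Growth factor signals in ESCs pass through Ras, Raf and Mek to the Erk kinases, of which Erk1 is the product of Mapk3. Active Erk switches on immediate early transcription factors such as Egr1 and Fos, and feedback inhibitors such as Sprouty proteins and dual-specificity phosphatases. Erk activity is known to prepare mouse ESCs to leave the naive state, and Mek inhibitors are widely used to hold them in it.

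The libraries held 9.05 (KH2) and 9.83 (Erk KO) times 1e6 reads in genes, and the other 4 between 9.09 and 9.95. Several features separated the 2 lines in all 3 pairs. Ratios fell with the GC content of the transcripts (Spearman rho across 10780 genes −0.37 in the inhibited pair, −0.37 in the untreated and −0.36 in the Dox pair). For the inhibitor's effect within a line rho was 0.12 in KH2 and 0.19 in Erk KO cells. In the inhibited pair the median log2 ratio went from 0.06 in the 1078 genes with the lowest GC content to −0.74 in the 1078 with the highest. Genes of chromosome 19 had a median of 0.17 and those of the other autosomes and the X chromosome medians from −0.37 to −0.03. The Y-linked genes were nearly lost. Genotype, clone history and library preparation cannot be told apart by these features, and their part in the results was not tested. Ratios are therefore given by library totals, by composition scaling (TMM) and after centring by GC content. TMM adds about 0.31 to the log2 ratio of well expressed genes in this pair. It adds less at low levels, because 0.5 is added to every RPKM. The files were also deposited in 2 formats, one for each line.

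**Figure D1:**
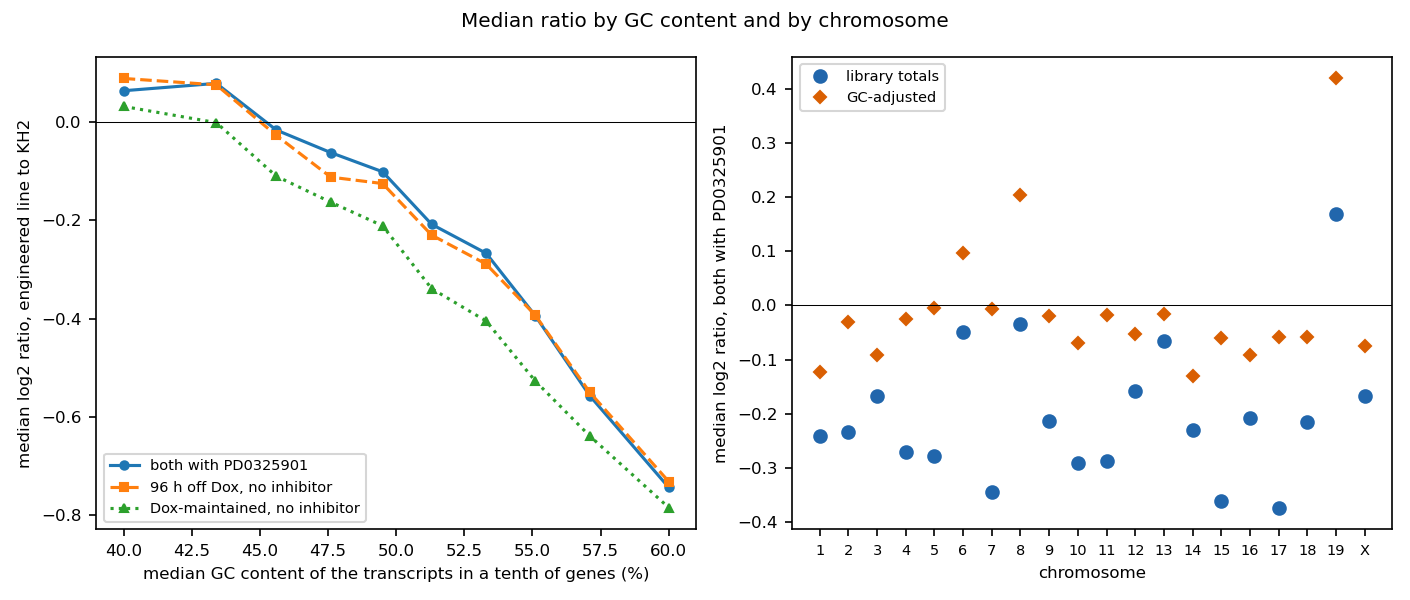
Left, median log2 ratio (engineered line to KH2) in 10 groups of 1078 genes ordered by transcript GC content in percent, for the 3 pairs. Right, median log2 ratio of the inhibited pair by chromosome, by library totals (circles) and after GC adjustment (diamonds). All 3 lines on the left fall from near 0 to between −0.73 and −0.79, and chromosome 19 lies highest on the right, at 0.17 by totals and 0.42 after adjustment.

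The Erk1 gene was lower in the engineered line. Mapk3 (gene ID 26417) stood at 52.8 RPKM (reads per kilobase of gene and 1e6 library reads) in inhibited KH2 cells and 9.18 RPKM in inhibited Erk KO cells, which is 5.74-fold lower (interval 4.85 to 6.85). It was at 56.4 RPKM in untreated KH2 cells, 14.8 RPKM with Dox, and 6.86 and 6.75 RPKM after 48 and 96 hours without Dox. All 4 libraries of the engineered line thus lay below both KH2 libraries. Reads covered 86.8% of the Mapk3 transcript in the inhibited Erk KO library and 95.2% in the inhibited KH2 library. The files hold totals per gene, so they do not show which exons these reads covered. Folds are of reads scaled to the library totals, and intervals are exact 95% Clopper-Pearson intervals that cover counting error only. Mknk2, which encodes a kinase activated by Erk, was also lower by library totals (log2 ratio −1.06) and no longer passed under TMM or GC adjustment.

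A gene was counted as higher or lower in the Erk KO library when the log2 ratio of RPKM plus 0.5 was at least 1 in size and the interval of its fold excluded 1. It also needed 20 or more reads in the 2 libraries together and a level of 1 RPKM or more in one of them. By library totals 472 of 12642 genes were higher (3.73%) and 1975 lower (15.6%). Under TMM scaling 996 (7.82%) were higher and 1161 lower (9.12%) of 12735, a total of 16.9% against 19.4% by totals, so the share of higher genes among those passing depended on the scale. After GC adjustment 684 (5.38%) were higher and 1154 lower (9.08%) of 12708. Under all 3 scales 440 genes remained higher (3.48%) and 923 lower (7.3%). The median log2 ratio of all genes tested was −0.27 by totals and 0.02 under TMM, and list medians below are by totals.

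**Figure D2:**
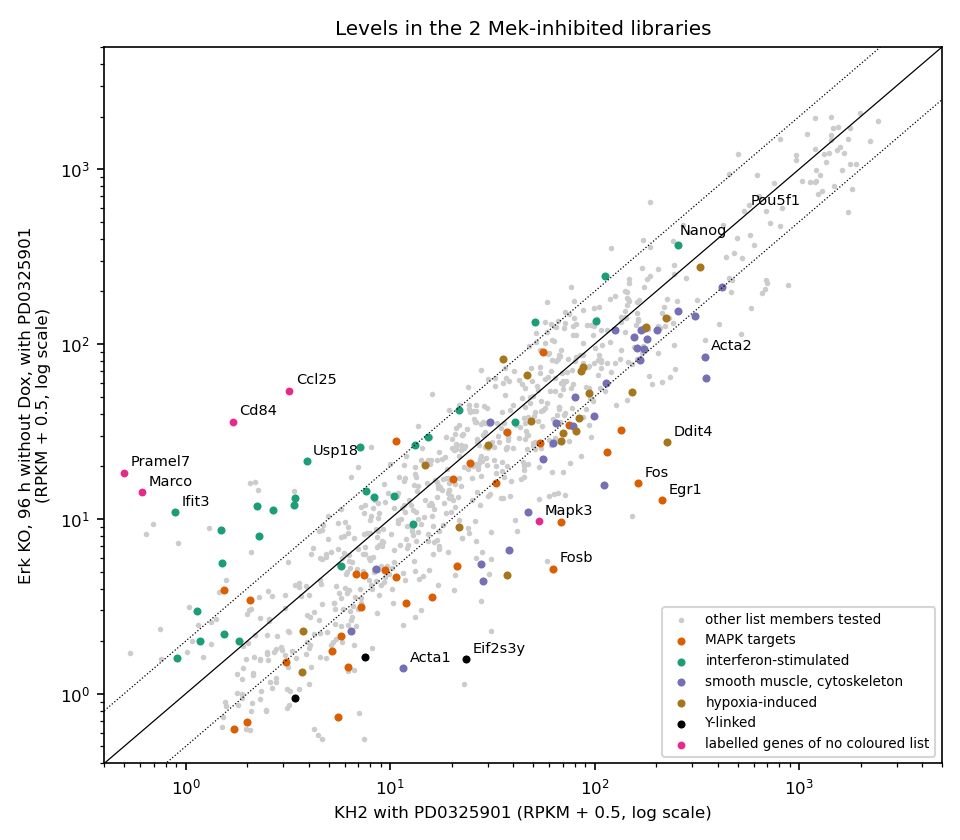
Levels in the 2 inhibited libraries, RPKM plus 0.5 on log axes, KH2 on the x axis and Erk KO on the y axis. Each point is a member of a gene list that could be tested, the solid line marks equal levels and the dotted lines 2-fold. MAPK targets such as Egr1 (214 and 12.3 RPKM) lie below the lower dotted line and interferon-stimulated genes such as Ifit3 (0.387 and 10.4 RPKM) above the upper one.

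Most of the MAPK target genes tested, immediate early and Erk feedback genes among them, were lower in Erk KO cells by library totals although Mek was inhibited in both libraries. Of 31 tested MAPK target genes 20 were lower and 2 higher by library totals (15.6% and 3.73% of all genes). The counts were 15 and 2 under TMM (9.12% and 7.82%), and 16 and 2 after GC adjustment (9.08% and 5.38%). The list median was −1.20. The zinc finger factor gene Egr1 had 214 RPKM in inhibited KH2 cells and 12.3 RPKM in inhibited Erk KO cells, 17.5-fold lower (15.7 to 19.5). The other libraries held 168 RPKM of Egr1 in untreated KH2 cells, 45.7 RPKM with Dox, and 2.11 and 7.95 RPKM after 48 and 96 hours without Dox. Both KH2 libraries were thus the highest for Egr1, and the inhibited Erk KO library lay above the 2 other libraries without Dox and below the library with Dox. Fos and Fosb, which encode parts of the AP-1 factor, had the same order of KH2, Dox and inhibited Erk KO libraries. Fos went from 163 to 15.5 RPKM (10.5-fold lower, 9.32 to 11.8), Fosb from 62.0 to 4.71 RPKM (13.2-fold lower, 11.3 to 15.5) and Jun from 67.9 to 9.13 RPKM (7.44-fold lower, 6.57 to 8.45). In KH2 cells Fos and Fosb were higher with the inhibitor than without it, at 84.0 and 33.3 RPKM untreated. Further lower members were Egr2 (log2 ratio −2.91), the phosphatase genes Dusp1 (−2.05), Dusp4 (−1.85), Dusp2 (−1.54) and Dusp5 (−1.20), Phlda1 (−2.16), Ier3 (−2.25) and Fosl2 (−1.98).

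Some feedback genes were already low in inhibited KH2 cells and lower still in inhibited Erk KO cells. Spry4, a feedback inhibitor of receptor tyrosine kinases, had 31.4 RPKM in untreated KH2 cells, 1.22 in inhibited KH2 cells and 0.132 in inhibited Erk KO cells (51 and 6 reads, 9.24-fold lower, 3.96 to 26.3). The ETS factor gene Etv4 had 53.1, 5.72 and 0.914 RPKM in the same libraries (6.26-fold lower in the inhibited pair, 3.92 to 10.5). In the engineered line with Dox and after 48 and 96 hours without it Spry4 had 23.9, 1.54 and 6.41 RPKM and Etv4 had 8.14, 1.19 and 4.26 RPKM. The inhibited Erk KO library thus had the lowest level of the 6 for both genes, though close to the 48-hour library for Etv4. Dusp6, the Erk phosphatase gene, had 6.95 RPKM in inhibited KH2 cells and 4.27 RPKM in inhibited Erk KO cells (log2 ratio −0.64) and did not pass. Myc (−0.89), Spry2 (−0.24), Spred2 (−0.27), the receptor gene Epha2 (−0.99), Il17rd (−0.50) and the cyclin D1 gene Ccnd1 (−0.25) did not pass either. Epha4, an ephrin receptor gene, was higher, from 10.1 to 27.6 RPKM, and so was the ETS factor gene Etv1, from 1.04 to 3.41 RPKM. Etv5 (0.69) and Rasgef1a (0.73) were on the same side below the limit.

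Promoters of 2 of the lower MAPK targets held a CArG box, the site known to bind serum response factor. They are shown because most of the group was lower, and are RefSeq windows of 300 bases on GRCm38.p6 from 250 bases before the start site, in lower case with the CArG boxes in capitals. The first is chr10:67537316-67537615 on the plus strand and the second chr19:53528895-53529194 on the plus strand.
Egr2: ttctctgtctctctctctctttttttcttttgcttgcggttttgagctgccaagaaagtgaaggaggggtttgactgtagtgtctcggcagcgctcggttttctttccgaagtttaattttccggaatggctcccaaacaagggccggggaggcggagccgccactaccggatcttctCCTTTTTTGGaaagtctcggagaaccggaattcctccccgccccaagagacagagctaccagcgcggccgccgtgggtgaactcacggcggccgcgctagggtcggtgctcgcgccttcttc
Dusp5: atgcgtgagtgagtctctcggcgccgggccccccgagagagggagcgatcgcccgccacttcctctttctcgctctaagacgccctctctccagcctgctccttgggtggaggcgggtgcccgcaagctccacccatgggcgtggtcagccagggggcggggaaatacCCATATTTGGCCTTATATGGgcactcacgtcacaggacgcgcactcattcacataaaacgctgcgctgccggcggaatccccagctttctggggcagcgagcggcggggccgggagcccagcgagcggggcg
A CArG box on either strand was present in 2 of the 13 lower MAPK targets with a promoter in the table (15.4%), in 0 of 9 other members and in 1.49% of the promoters of 10063 genes tested. The Dusp5 window holds 2 adjacent copies, and the Egr2 window is 1 of 5 in the table for that gene. A match of letters describes the window and says nothing of binding. Dusp5 no longer passed under TMM or after GC adjustment.

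**Figure D3:**
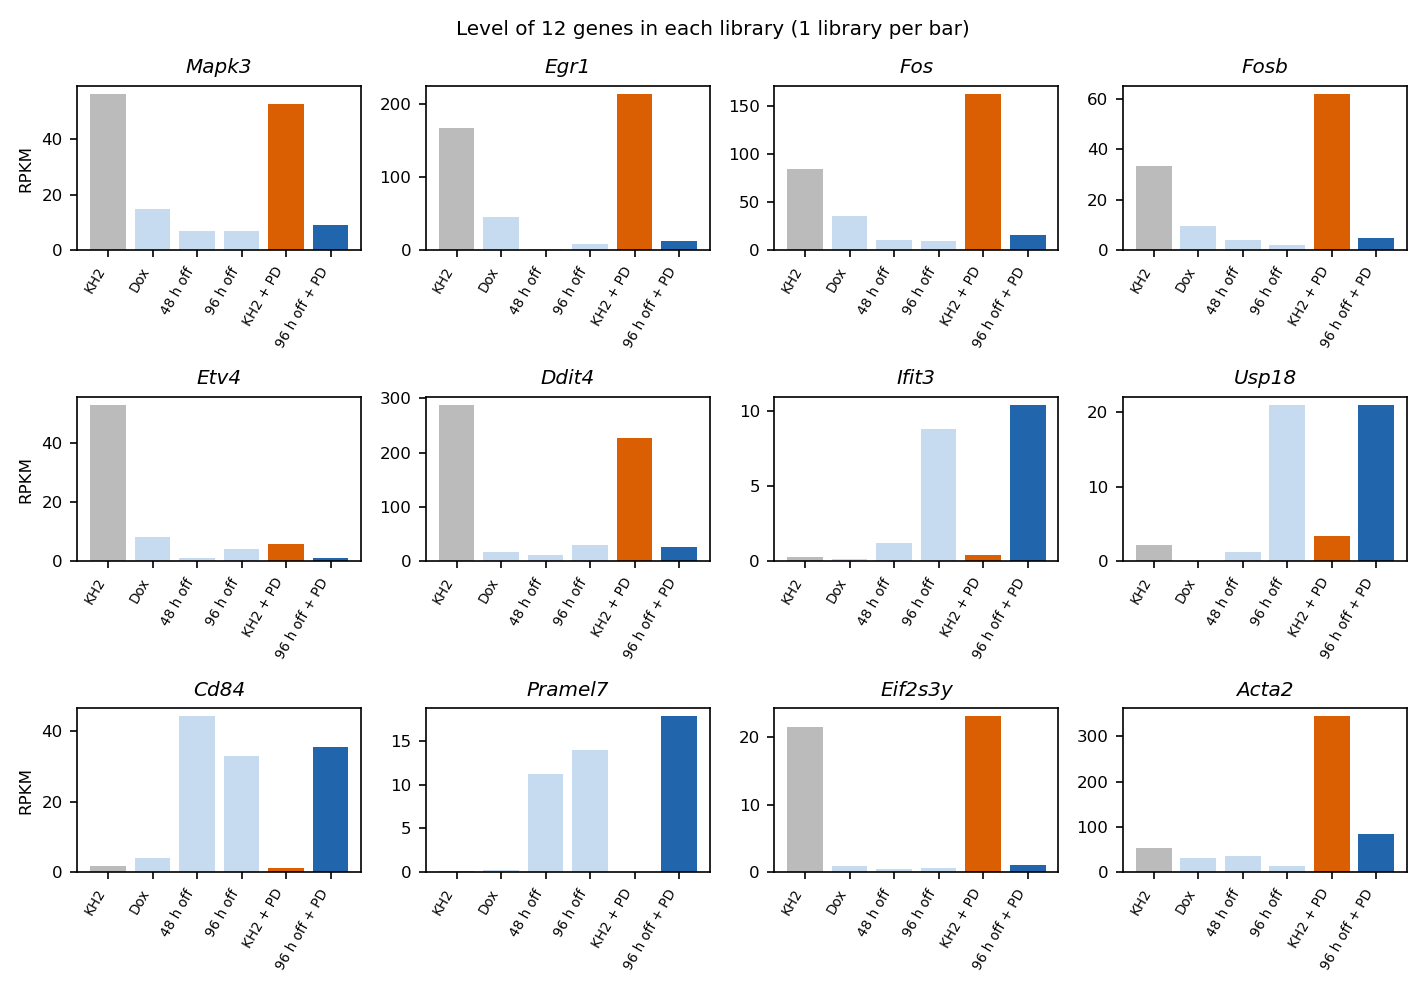
RPKM of 12 genes in the 6 libraries, 1 library per bar on an axis that starts at 0: grey, untreated KH2; pale blue, the engineered line with Dox and 48 and 96 hours without Dox; orange, KH2 with PD0325901; dark blue, Erk KO with PD0325901. The dark blue bar is below the orange one for Mapk3, Egr1, Fos, Fosb, Etv4, Ddit4, Eif2s3y and Acta2 and above it for Ifit3, Usp18, Cd84 and Pramel7.

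Several signalling and lineage genes were among the lowest of all. Porcn, which encodes the acyltransferase that Wnt proteins need for secretion, stood at 22.5 and 0.644 RPKM (386 and 12 reads, 34.9-fold lower, 19.8 to 68.2), with the lowest log2 ratio of the genes named (−4.33). T, the mesoderm factor Brachyury, had 129 reads in inhibited KH2 cells and 1 in Erk KO cells (140.2-fold lower, 24.7 to 5578). The Wnt-responsive factor gene Sp5 had 79 reads and 1. Both of these are known Wnt targets, and the engineered line held at most 0.675 RPKM of T and 0.152 RPKM of Sp5 in its other libraries. Of 17 Wnt pathway genes tested, 7 were lower (Porcn, T, Sp5, Cdx1, Nkd2, Bmp4 and Axin2) and Tcf7l1 and Notum were higher. Under TMM 4 were lower and 2 higher. The shares of all genes were 15.6% lower and 3.73% higher by totals, and 9.12% and 7.82% under TMM. Against the same shares, 7 of 12 primitive streak and mesoderm genes tested were lower and 1 higher by totals, and 4 and 2 under TMM. The lower ones included the Nodal antagonist gene Lefty1 (63.0 and 10.7 RPKM, 5.91-fold lower, 5.01 to 7.0) and Wnt3 (74 and 10 reads), and the higher one by totals was Gsc (7 and 23 reads). Of 17 BMP and Nodal genes 5 were lower and 0 higher by totals (15.6% of all genes lower) and 3 and 0 under TMM, including the helix-loop-helix inhibitors Id1 (25.8 and 5.47 RPKM) and Id3 (41.0 and 8.02 RPKM). Of 14 Fgf ligand and receptor genes 6 were lower by totals (15.6% of all genes) and 2 under TMM (9.12%) and after GC adjustment (9.08%). Fgf8 had 45 reads and 1, and Fgf10 was higher (log2 ratio 1.0, not after GC adjustment).

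Of 17 primitive endoderm genes tested 8 were lower and 0 higher (15.6% and 3.73% of all genes). Under TMM and after GC adjustment 7 were lower (9.12% and 9.08% of all genes). The GATA factor gene Gata6 had 104 and 29 reads (3.90-fold lower, 2.56 to 6.10), and Sox7 and Sox17 had 46 and 4 and 42 and 4 reads. Cubn and Amn, which encode partners in an endocytic receptor, had 104 and 16 and 42 and 9 reads. These levels were low in KH2 cells too, at 1.01 to 3.60 RPKM for these 5 genes. Of 17 formative and primed state genes 7 were lower and 2 higher by totals (15.6% and 3.73% of all genes), 4 and 2 under TMM, and 4 and 3 after GC adjustment. The keratin genes Krt8 (59.0 and 13.0 RPKM) and Krt18 (35.0 and 12.7 RPKM) and the neurofilament gene Nefl (18.6 and 5.96 RPKM) were lower. Zic2 (6.48 and 19.2 RPKM) and Otx2 (18.8 and 41.6 RPKM), transcription factor genes of the early epiblast, were higher. The de novo methyltransferase genes Dnmt3a (−0.21) and Dnmt3b (0.43) and Fgf5 (8 and 5 reads) did not pass.

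Many extracellular matrix and contractile genes had lower levels in inhibited Erk KO cells than in inhibited KH2 cells. Of 29 fibroblast markers tested 17 were lower and 0 higher by totals (15.6% and 3.73% of all genes). Under TMM 10 were lower (9.12%) and after GC adjustment 11 (9.08%). The list median was −1.06. Col1a1, the main chain of type I collagen, had 878 RPKM in inhibited KH2 cells and 218 RPKM in inhibited Erk KO cells (4.03-fold lower, 3.94 to 4.12), against 96.4 RPKM in untreated KH2 cells and 17.2 to 25.9 RPKM in the 3 libraries of the engineered line without the inhibitor. The collagen crosslinking enzyme gene Lox went from 579 to 161 RPKM, Timp3 from 234 to 64.6 RPKM and thrombospondin Thbs1 from 656 to 195 RPKM. Untreated KH2 cells held 94.0 RPKM of Lox, 29.3 RPKM of Timp3 and 185 RPKM of Thbs1, so the inhibited Erk KO library lay above them for all 4 genes, though by little for Thbs1. The fibroblast list summed to 4839 RPKM in the inhibited KH2 library and 1766 RPKM in the inhibited Erk KO library, to 1384 RPKM in untreated KH2 cells and to between 604 and 687 RPKM in the 3 other libraries, and 0 of its 30 genes were without reads in any library. In bulk RNA, fewer cells of a type and less RNA per cell cannot be told apart, and the part of such cells in any result here was not tested. Of 12 endothelial markers 5 could be tested and 0 passed in either direction.

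Of 26 small leucine-rich proteoglycan and other matrix genes tested 16 were lower and 0 higher by totals (15.6% and 3.73% of all genes). Under TMM 12 were lower (9.12%). Fmod, a proteoglycan that binds collagen fibrils, had 27.3 and 2.88 RPKM (9.46-fold lower, 7.51 to 12.1), and Prelp had 65.7 and 13.6 RPKM (4.83-fold lower, 4.37 to 5.34). The matricellular gene Ccn2 had 517 and 114 RPKM and biglycan, Bgn, 407 and 130 RPKM. Of 30 smooth muscle and cytoskeleton genes tested 15 were lower and 0 higher by totals (15.6% and 3.73% of all genes). Under TMM and after GC adjustment 11 were lower (9.12% and 9.08% of all genes). The myosin light chain gene Myl9 had 111 and 15.2 RPKM (7.31-fold lower, 6.19 to 8.68), the smooth muscle actin gene Acta2 345 and 84.2 RPKM (4.10-fold lower, 3.91 to 4.31) and calponin, Cnn1, 27.9 and 3.89 RPKM. The skeletal actin gene Acta1 had 158 and 14 reads (12.3-fold lower, 7.10 to 22.9). Untreated, Acta2 had 53.3 RPKM in KH2 and 13.4 RPKM in Erk KO cells, so the inhibited Erk KO library exceeded both. Of 19 protease and serpin genes tested 10 were lower and 0 higher by totals (15.6% and 3.73% of all genes). Under TMM 8 were lower and 2 higher (9.12% and 7.82%), and after GC adjustment 8 and 0 (9.08% and 5.38%). The lower ones included the urokinase gene Plau (8.11 and 2.39 RPKM) and its receptor gene Plaur (25.8 and 6.99 RPKM). Serpina3h had 567 and 36 reads (17.1-fold lower, 12.2 to 24.7), and it belongs to a gene cluster with similar copies, which makes unique-read counts uncertain. The summed RPKM of the fibroblast, matrix, smooth muscle and protease lists was each highest in inhibited KH2 cells, where Fos, Fosb and Egr1 were highest too. The order of the other libraries differed between lists. The inhibited Erk KO library summed above untreated KH2 cells for matrix genes (1636 against 1135 RPKM) and below them for proteases (652 against 680 RPKM). What lies behind these sums was not tested.

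**Figure D4:**
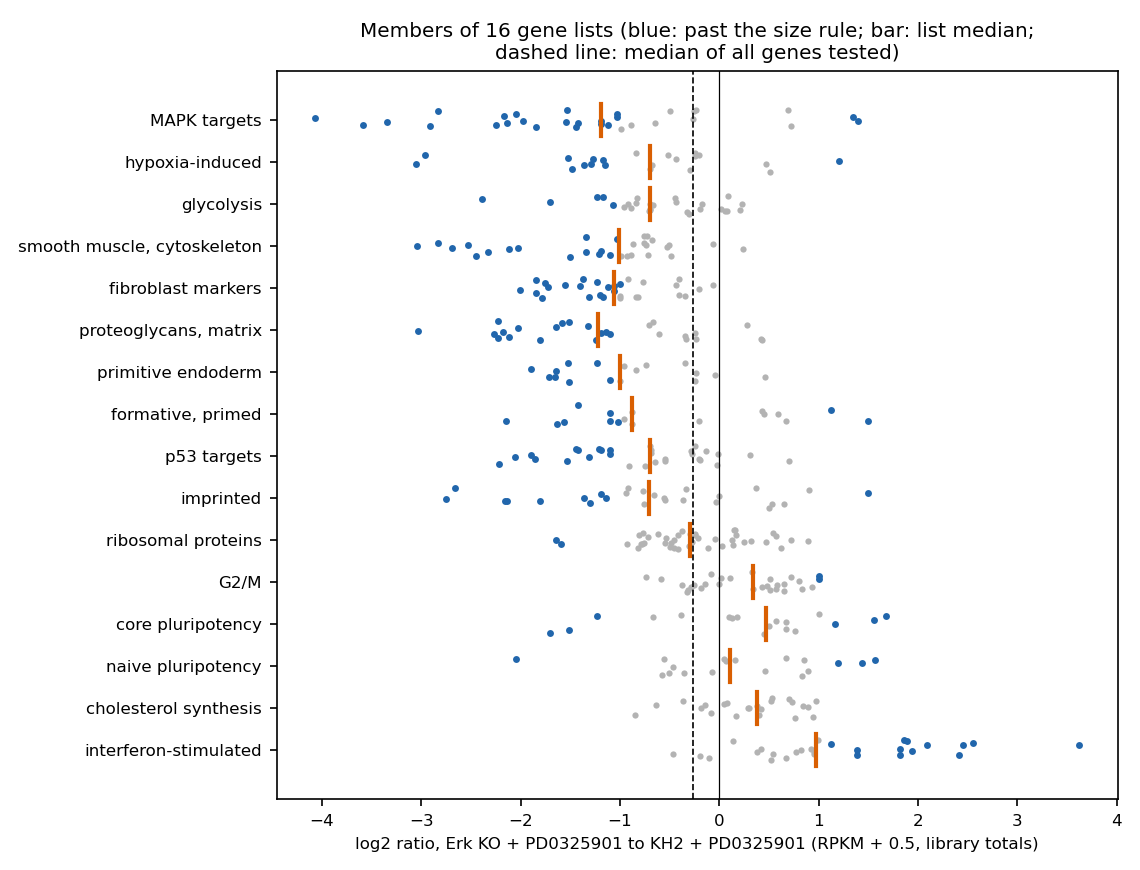
Log2 ratios (RPKM plus 0.5, library totals, Erk KO to KH2, both with PD0325901) of the tested members of 16 gene lists, 1 point per gene. Blue points pass the size rule, orange bars mark list medians and the dashed line the median of all genes tested (−0.27). MAPK targets and matrix lists lie to the left (medians −1.20 and −1.22) and interferon-stimulated genes to the right (0.97).

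Some hypoxia-induced and p53 target genes were also lower. Of 21 hypoxia-induced genes outside glycolysis 9 were lower by totals (15.6% of all genes). Under TMM 5 were lower (9.12%) and after GC adjustment 6 (9.08%), and Kdm3a was higher. Ddit4, an inhibitor of mTOR signalling, had 227 RPKM in inhibited KH2 cells and 26.9 RPKM in inhibited Erk KO cells (8.44-fold lower, 7.64 to 9.33), with 288 RPKM in untreated KH2 cells and 11.3 to 30.5 RPKM in the other engineered libraries. The adrenomedullin gene Adm had 36.7 and 4.27 RPKM (8.60-fold lower, 6.53 to 11.5). Of 27 glycolysis genes 5 were lower and 0 higher by totals, near the share of all genes (15.6%). Under TMM 2 were lower (9.12% of all genes), the enolase gene Eno2 (481 and 89 reads) and the glucose transporter gene Slc2a1 (345 and 105 RPKM). In the Dox pair 16 of the 21 hypoxia genes tested there and 16 glycolysis genes were lower (21.4% of all genes). The lists summed to 347 RPKM (hypoxia) and 5999 RPKM (glycolysis) in the Dox library, below the 1186 and 8725 RPKM of the inhibited Erk KO library. Of 30 p53 target genes 12 were lower and 0 higher (15.6% and 3.73% of all genes). Under TMM 8 were lower and 1 higher (9.12% and 7.82%). The lower ones included the growth factor gene Gdf15 (13.7 and 2.53 RPKM), Gadd45g (40.3 and 9.32 RPKM) and the apoptosis gene Pmaip1 (93.6 and 34.0 RPKM). The p21 gene Cdkn1a went from 203 to 88.6 RPKM (log2 ratio −1.19) and no longer passed under TMM.

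Many interferon-stimulated genes were higher in inhibited Erk KO cells. Of 28 tested 13 were higher and 0 lower by totals (3.73% and 15.6% of all genes), with a median of 0.97. Under TMM 19 were higher (7.82%) and after GC adjustment 16 (5.38%). Ifit3, a member of the antiviral Ifit complex, had 0.387 RPKM in inhibited KH2 cells and 10.4 RPKM in inhibited Erk KO cells (7 and 205 reads, 27.0-fold higher, 12.8 to 67.9). It stood at 0.275 RPKM in untreated KH2 cells, 0.106 RPKM with Dox, 1.24 RPKM after 48 hours without Dox and 8.85 RPKM after 96 hours. Usp18, which removes the ubiquitin-like protein of this response, had 3.42 and 20.9 RPKM (6.12-fold higher, 4.6 to 8.29), and in the same other libraries 2.10, 0.0598, 1.22 and 21.02 RPKM. Both genes were therefore highest in the 2 libraries 96 hours without Dox and lowest with Dox. The factor gene Irf7 (2.95 and 12.7 RPKM), the oligoadenylate synthetase family genes Oasl2 (1.73 and 11.3 RPKM) and Oas1a (2.16 and 10.8 RPKM), Ifi44 (0.985 and 8.20 RPKM) and Zbp1 (1.78 and 7.52 RPKM) were also higher. Irf1 (−0.47), Gbp2 (−0.11) and Lgals3bp (−0.20) had negative ratios. In the Dox pair 13 members were lower and 0 higher (21.4% and 2.76% of all genes). The type I interferon response is known to be weak in ESCs. Members of the Ifit and Oas families share sequence, so their unique-read counts are uncertain, and the Ifit genes lie on chromosome 19.

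The interferon-stimulated response element was searched as GAAANNGAAA on both strands in the same RefSeq windows. It was present in 6 of the 9 passing members that had a promoter in the table (66.7%), in 6 of the 13 members that did not pass (46.2%) and in 3.47% of 10063 genes tested, so passing and other members both held it often. The passing genes with the element were Ifit3, Ifit1, Oas1a, Gbp3, Bst2 and Ifitm3. Of these, Ifit3, Oas1a and Gbp3 had the largest log2 ratios, and their windows are shown with the matches in capitals. They are chr19:34583279-34583578 (plus strand), chr5:120907476-120907775 (minus strand) and chr3:142559794-142560093 (plus strand), read 5′ to 3′ along the gene.
Ifit3: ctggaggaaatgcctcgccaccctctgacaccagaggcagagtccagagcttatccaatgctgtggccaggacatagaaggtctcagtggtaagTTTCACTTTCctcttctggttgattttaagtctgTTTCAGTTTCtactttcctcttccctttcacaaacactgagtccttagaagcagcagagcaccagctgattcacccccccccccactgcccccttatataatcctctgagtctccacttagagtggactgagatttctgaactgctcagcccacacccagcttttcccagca
Oas1a: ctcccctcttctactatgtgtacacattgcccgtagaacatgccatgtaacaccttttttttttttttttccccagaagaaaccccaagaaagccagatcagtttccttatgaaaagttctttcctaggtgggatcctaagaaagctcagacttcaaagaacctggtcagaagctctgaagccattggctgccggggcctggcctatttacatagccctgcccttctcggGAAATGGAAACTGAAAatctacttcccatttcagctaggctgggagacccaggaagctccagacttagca
Gbp3: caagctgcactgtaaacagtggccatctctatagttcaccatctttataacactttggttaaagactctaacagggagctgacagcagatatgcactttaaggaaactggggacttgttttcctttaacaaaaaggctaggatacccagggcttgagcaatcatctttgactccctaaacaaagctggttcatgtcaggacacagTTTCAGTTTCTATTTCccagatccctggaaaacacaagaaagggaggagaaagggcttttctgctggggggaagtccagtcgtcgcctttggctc
In Oas1a and Gbp3 the 2 matches overlap in 1 run, and in Ifit3 they are separate. In Ifit3 and Gbp3 the capitals read as the reverse complement, and the Gbp3 window is 1 of 2 in the table.

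The genes of antigen presentation were mostly not higher. Of 19 MHC class I and antigen processing genes tested 6 were lower (15.6% of all genes). Only the chaperone gene Calr was higher (504 and 1215 RPKM). The peptide transporter genes Tap1 (7.68 and 3.48 RPKM) and Tap2 (4.93 and 1.55 RPKM) and the immunoproteasome gene Psmb9 (32 and 14 reads) were lower by totals. Under TMM 2 were lower, H2-M3 and Tap2 (9.12% of all genes). In the Dox pair 15 were lower (21.4% of all genes). Among 16 secreted inflammatory genes tested, Ccl5 (5 and 19 reads), Il1b (3 and 24 reads) and Cxcl1 (83 and 190 reads) were higher and Csf1, Cxcl12 and Tnfaip3 lower. The shares of all genes were 3.73% higher and 15.6% lower.

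The highest ratios belonged to genes that KH2 cells hardly expressed. Pramel7, a gene of the preimplantation embryo whose product is known to favour low DNA methylation, had 0 reads in inhibited KH2 cells and 327 in Erk KO cells, at least 100.3-fold higher against a floor of 3 reads. It stood at 0.118 RPKM in untreated KH2 cells, 0.286 RPKM with Dox, 11.2 and 13.9 RPKM after 48 and 96 hours without Dox, and 17.9 RPKM in the inhibited Erk KO library. Its relatives Pramel6 (2 and 117 reads) and Pramel30 (3 and 151 reads) had the same order between the lines, and reads of this family are hard to assign. Cd84, a receptor of blood cells, had 1.21 and 35.5 RPKM (31.4-fold higher, 22.6 to 45.1), the chemokine gene Ccl25 2.72 and 53.6 RPKM (19.7-fold higher, 13.4 to 30.2), the T cell receptor subunit gene Cd3g 1 and 137 reads and the scavenger receptor gene Marco 2 and 268 reads. With Ifit3, the homeobox gene Crxos (9.89-fold higher, 6.88 to 14.7), Rtp4 (9.4-fold), Mypn (10.5-fold) and Ak7 (8.04-fold) completed the 12 highest named genes with at least 100 reads. They were chosen among genes passing by totals and under TMM, and all 12 also passed after GC adjustment. In the library with Dox 11 of these were below 5 RPKM, with Ak7 at 8.87 RPKM. Of 15 macrophage and blood markers 4 could be tested and Lyz2 (4 and 71 reads) and Adgre1 (1 and 39 reads) were higher, while Csf1r, Ptprc and Itgam did not reach the limits on reads and RPKM. That list summed to 17.2 and 26.6 RPKM, with 4 of its genes without reads in inhibited KH2 cells and 0 in Erk KO cells, and its part in these results was not tested.

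The defining markers of the ESC label were high in both libraries. Pou5f1 stood at 539 and 575 RPKM (log2 ratio 0.09), Sox2 at 170 and 271 RPKM (0.67) and Nanog at 242 and 387 RPKM (0.68), and 0 of the 18 core pluripotency genes were without reads. In that list L1td1, Sall1 and Dppa4 were higher and Utf1, Tdh and Dppa5a lower (3.73% and 15.6% of all genes). Under TMM 5 were higher and 2 lower (7.82% and 9.12% of all genes), so the lower counts were near the share of all genes. L1td1, an RNA-binding protein gene of ESCs, went from 120.1 to 355 RPKM (2.96-fold higher, 2.84 to 3.08). Of 18 naive genes Fbxo15 (58.3 and 173 RPKM), Spic (5.94 and 16.9 RPKM) and Zfp42 (171 and 392 RPKM) were higher and Manba lower by totals. The shares of all genes were 3.73% and 15.6%. Under TMM 6 naive genes were higher and 1 lower (7.82% and 9.12% of all genes). Prdm14, which restrains DNA methylation in naive cells, had 13.8 and 24.8 RPKM (1.80-fold higher, 1.58 to 2.07) and passed only under TMM. Klf4 (−0.58), Klf2 (−0.51), Esrrb (−0.35), Tbx3 (0.06) and Dppa3 (0.15) did not pass. Of 17 genes of the DNA methylation list 0 passed by totals, and 4 were higher under TMM (7.82% of all genes).

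Other groups gave smaller or scale-dependent counts. The 3 Y-linked genes that could be tested were lower, with Eif2s3y at 23.1 and 1.07 RPKM, Ddx3y at 294 and 51 reads and Uty at 139 and 23 reads. In the 3 untreated engineered libraries Eif2s3y lay between 0.458 and 0.944 RPKM. Xist, the RNA of X inactivation, was at 5.72 and 0.852 RPKM. Reads of Eif2s3y, Ddx3y and Uty can come from their X-linked copies, and Xist overlaps its antisense gene Tsix, which the files do not separate by strand. Of 26 imprinted genes 9 were lower (15.6% of all genes), among them Meg3 (29.9 and 4.31 RPKM), Rian and Mirg of 1 imprinted cluster. Mest was higher (26 and 104 reads). Of 8 histone genes tested 5 were lower by totals (15.6% of all genes) and 3 under TMM (9.12%). The linker histone gene H1f2 was at 70.9 and 13.2 RPKM. Of 23 cholesterol synthesis genes 0 passed by totals and 7 were higher under TMM. Of 29 G2/M genes 2 were higher by totals and 6 under TMM. The shares of all genes higher were 3.73% by totals and 7.82% under TMM. After GC adjustment 3 cholesterol genes and 1 G2/M gene were higher (5.38% of all genes). The telomerase gene Tert was lower (177 and 66 reads, 2.91-fold, 2.18 to 3.93). Among 42 ribosomal protein genes only Rps19 and Rps20 were lower, below the share of all genes (15.6%). Processed copies of such genes make unique counts uncertain.

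Most of the differences between the lines were also present without the inhibitor. Of the genes higher in the inhibited pair 343 also passed as higher in the untreated pair, which is 72.7% of 472 and 63.4% of 541 (4.29% of all genes there). Of the lower genes 1283 were shared, 65.0% of 1975 and 63.6% of 2016 (16.0%), and 0 genes passed in opposite directions. In the untreated pair 20.3% of all genes passed in either direction, with 8.55% higher and 9.34% lower under TMM and 6.14% and 9.07% after GC adjustment. Ratios were also correlated across the 10901 genes tested in the inhibited pair with at least 100 reads in its 2 libraries together. The inhibited and untreated pairs correlated with r = 0.90 (Pearson) and rho = 0.90 (Spearman), a description across genes that share the 2 lines and their GC trend. With the Dox pair r was 0.69 and rho 0.72. There 132 higher genes were shared, 28.0% of 472 and 38.5% of 343 (2.76%), and 27 genes higher in the inhibited pair were lower with Dox. Under TMM 486 higher genes were shared with the Dox pair, 48.8% of 996 and 41.5% of 1171. Of the lower genes 1206 were shared with the Dox pair, 61.1% of 1975 and 45.3% of 2662 (21.4%). In the Dox pair 24.2% of all genes passed in either direction, with 9.38% higher and 11.5% lower under TMM and 5.26% and 12.5% after GC adjustment. In all, 241 of the 472 higher genes (51.1%) passed in the untreated pair but not in the Dox pair, and 102 (21.6%) passed in both. Under TMM the order turned, with 348 of 996 (34.9%) in the untreated pair but not the Dox pair and 396 (39.8%) in both. Of the lower genes 950 (48.1%) passed in both and 436 (22.1%) in neither by totals, and 434 (37.4%) and 356 (30.7%) of 1161 under TMM.

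**Figure D5:**
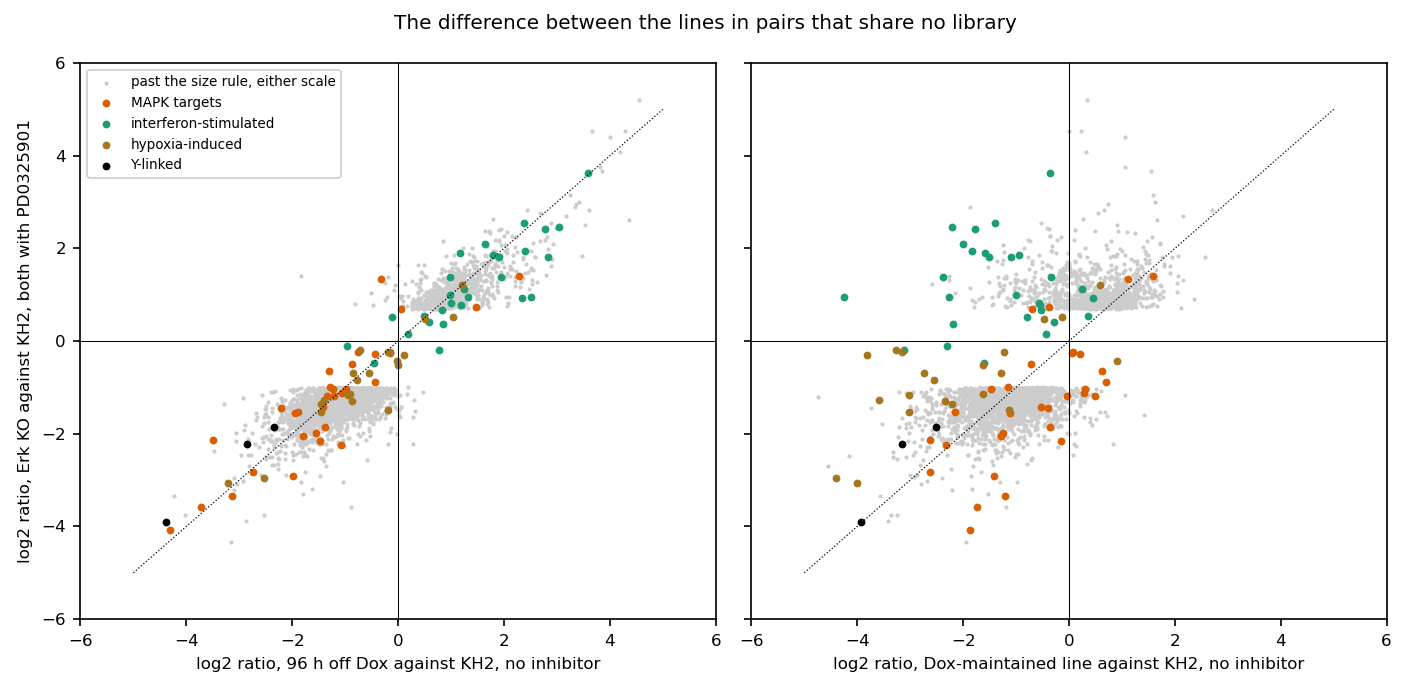
Log2 ratio of the inhibited pair (y axis) against the untreated pair (left) and the Dox pair (right). Grey points are genes past the size rule by totals or TMM, coloured points are tested members of 4 lists, and the dotted line marks equal ratios. On the left points follow the line, and on the right many interferon-stimulated genes (green) lie at the upper left, with 13 lower in the Dox pair.

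A few named genes differed between the inhibited libraries by more than between the untreated ones. The osteoglycin gene Ogn had 253 and 49 reads with the inhibitor (log2 ratio −2.22) and a log2 ratio of 0.28 without it, and Acta1 had −3.05 and −1.04. Etv1 had a log2 ratio of 1.34 with the inhibitor and −0.33 without it, Zic5 of 1.64 and 0.00, and Zic2 of 1.5 and 0.43. Spry4 (−1.45 and −2.21), Etv4 (−2.14 and −3.49) and Fgf15 (−1.10 and −2.36) had larger ratios without the inhibitor. These differences between pairs were not tested, since each value comes from 1 library.

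A difference between the lines over both inhibitor states was tested on the 4 libraries with edgeR's quasi-likelihood test, with inhibitor state as a block and Benjamini-Hochberg adjustment. It called 4042 of 14782 genes higher (27.3%) and 4320 lower (29.2%), in all 56.6%, so a call for a single gene was no rare event. The fit has 1 residual degree of freedom and rests mostly on spread borrowed across genes. Egr1 had a log2 fold change of −3.98 (SE 0.111, edgeR adjusted p 1.20e-11) and Ddit4 of −2.88 (SE 0.103, adjusted p 1.14e-10), each lower in both pairs. Ifit3 had a log2 fold change of 5.11 (SE 0.293, edgeR adjusted p 7.39e-09) and Cd84 of 4.92 (SE 0.155, adjusted p 3.75e-11), each higher in both pairs. Egr1, Ddit4, Ifit3 and Cd84 were among the largest ratios of the inhibited pair, whose libraries are part of this fit. Their p-values are therefore no separate check of these genes. Of the 32 MAPK targets 24 were lower and 3 higher in the fit, of 29 interferon-stimulated genes 24 were higher and 0 lower, and of 30 fibroblast markers 20 were lower and 0 higher. Nanog (1.25, SE 0.125, edgeR adjusted p 1.13e-06) and Prdm14 (1.70, SE 0.222, adjusted p 1.38e-05) were called higher. Pou5f1 (0.14), Klf4 (−0.08), Esrrb (−0.01), Myc (−0.38), Ccnd1 (0.07), Dnmt3a (−0.18) and Dnmt3b (0.15) were not called by edgeR, with adjusted p from 0.0543 (Myc) to 0.903 (Esrrb).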

How the data were processed

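The 6 libraries were joined by gene ID over 18857 genes, with genes absent from a file set to 0 and symbols for 18805 IDs from RefSeq. The authors deposited counts of uniquely mapped reads per gene, RPKM values per the file headers, and the percent of each gene covered by reads, per the file headers. The deposited RPKM equals reads per kilobase and 1e6 library reads for every gene. Per the submitters' processing notes reads were placed on mm9. The aligner and counter are not given in the sources used here. Gene lengths differed between files for 41 genes. One read on 2 kb equalled 0.055 RPKM in KH2 with PD0325901. Without molecular identifiers, intervals and the floor of 3 reads cover counting error only.

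With 1 library per group the size rule described in the report replaced a test. TMM factors came from edgeR 4.0.16, DESeq2 1.42.0 served as an alternative, and GC adjustment centred log2 ratios in 40 bins of transcript GC content (known for 98.9% of genes). The GC adjustment was added after the data were seen. The line test used edgeR (glmQLFit) on counts with at least 20 reads over the 4 libraries, TMM scaling and a threshold of 0.05, with a common dispersion of 0.00756 and 13.8 prior degrees of freedom. Nothing says that libraries come from separate cultures. The 1 residual degree of freedom is how far the line difference changed with the inhibitor, not a spread between repeat libraries. The p-values weigh the line difference against that change and the spread borrowed across genes. The size rule and the line test were tested on simulated data.

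The comparison, the 46 gene lists and the rules were chosen with earlier results of these data known. Named genes were Mapk3, the 12 highest and 12 lowest ratios among properly named genes with at least 100 reads passing under totals and TMM, the 5 largest passing ratios in each list, and a set of pathway and pluripotency genes. Members named to complete a count were chosen after their values were seen. Some genes of these rules are not reported here. Alternatives were TMM, DESeq2 size factors, pseudocounts of 0.1 and 1, other read minimums, a 3-fold limit, and for the line test DESeq2, library totals, no filter, no block and all 6 libraries.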

Additional observations from a re-analysis of the deposited data

Results flagged for a closer look

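For 5 named genes the engineered line was on opposite sides of KH2 in the inhibited pair and in the Dox pair, each past the size rule, with 1 library per group and no test of the difference. Oas1a, Oasl2 and Usp18 are interferon-stimulated. Oas1a had a log2 ratio of 2.09 in the inhibited pair and −2.00 in the Dox pair, Oasl2 of 2.41 and −1.78, and Usp18 of 2.45 and −2.22. Otx2, an epiblast factor gene, had 1.12 and −1.24. Bmp4, a growth factor gene, had −1.16 and 1.05, and under TMM its inhibited pair no longer passed.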

How the results depend on the processing

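Of the counts for the inhibited pair, the total of 2447 genes moved by over 1.5 times only under a 3-fold limit, to 647 (119 higher and 528 lower). Against 472 higher and 1975 lower genes by totals, TMM scaling called 996 and 1161, DESeq2 size factors 1063 and 1111, and GC adjustment 1154 lower genes. TMM moved the untreated pair from 541 higher and 2016 lower to 1087 and 1188, and the Dox pair from 343 and 2662 to 1171 and 1436. The 8362 calls of the line test became 5095 with DESeq2 (2201 lower), 4725 without the inhibitor block (2611 higher and 2114 lower) and 4226 with all 6 libraries (2266 and 1960). With library totals 2607 were higher and 6676 lower. The cause of these shifts was not tested. Of 203 named genes 187 passed by totals, 162 of these also under TMM, 155 after GC adjustment and 147 under all 3. That 0 of the 187 changed sign was nearly fixed in advance. Each had a log2 ratio of at least 1 in size, and TMM adds about 0.31. The median that GC adjustment removed was −0.74 in the tenth of genes with the highest GC content. Of the named genes that did not pass, Ccnd1 (0.05) and Dnmt3a (0.08) turned positive under TMM, and Klf2 (0.29) and Esrrb (0.04) after GC adjustment. No paired analysis was possible because each group holds 1 library without a replicate number, so the block of the line test is the inhibitor state. Groups of 1 also allow no leaving out of replicates. A count of 0 allows up to 3 reads.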
